A study of Penicillium oxalicum with 18 samples.

Results

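A set of 69 genes of Penicillium oxalicum whose transcription on cellulose differed when the F-box gene fbx23 was deleted, and returned towards the wild type when fbx23 was put back, is described here. Genes were chosen by their group means of log2(FPKM + 1), where FPKM is the count of fragments mapped to a gene, scaled to the length of its transcript and to the depth of the library. The mean in Δfbx23 in cellulose medium (VMMC) had to be at least 2-fold away from both the WT and Refbx23, in the same direction. Refbx23 had to lie within 2-fold of the WT in VMMC, Δfbx23 had to lie within 2-fold of the WT in glucose medium (VMMG), and 1 of these 5 groups had to reach a mean of 5 FPKM. Of 9230 genes in the table, 69 met this, 44 higher and 25 lower in Δfbx23. A further 6 genes were left out by name, of which 5 met the numerical criteria. The folds of the rule are on FPKM + 1, so ratios of low FPKM can exceed them. In VMMC, for example, xyn30B (PDE_00014) had means of 0.0333 FPKM in the WT and 0.467 FPKM in Refbx23. In VMMG, the means of PDE_01201 were 2.72 FPKM in the WT and 0.967 FPKM in Δfbx23. Those of PDE_00667 were 1.18 and 0.167 FPKM.

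The samples are 18 libraries in 6 groups of 3, from mycelia of 3 strains in 2 media. The WT is strain 114-2. In Δfbx23 the gene was replaced by the hygromycin marker hph, and Refbx23 is Δfbx23 with fbx23 and the marker ptrA put back, so that the WT alone carries no marker. A single strain stands for each genotype. The labels give a preculture on glucose of 24 h, then 18 h with 2% glucose (here VMMG) or with 1% bran and 1% microcrystalline cellulose (VMMC), whereas the study's methods give another base medium, another culture time and cellulose without bran. The labels also describe a tag-based library and the methods RNA-Seq, which could not be settled. The study calls the replicates biological, and neither it nor the labels say how they were grown apart, so p-values measure the spread between these samples.

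F-box proteins are the subunits of SCF ubiquitin ligases that bind the substrate, so that the ligase can tag it with ubiquitin. Filamentous fungi such as P. oxalicum live on plant cell walls by secreting cellulases, which cut the glucose chains of cellulose, and hemicellulases, which take apart xylan and other wall polysaccharides. The genes of these enzymes are held low on glucose and raised on cellulose by a network of activators and repressors. Many such enzymes carry a carbohydrate-binding module that holds them to the fibre. No sequence of the strain was at hand, so loci are given by their numbers only.

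All 6 Δfbx23 libraries had fbx23 (PDE_08467) at 0, while the other 12 had it at 56.9 to 76.9 FPKM. FPKM sums ranged from 781397 to 954142 per library, and Pearson's r between replicate libraries, taken over genes, was 0.970 to 0.995. Mycelium can also carry conidia, and the summed level of 6 conidial pigment genes differed between groups. In VMMC it ran from 2841 to 3260 FPKM in the WT, 2716 to 3319 FPKM in Δfbx23 and 2511 to 2707 FPKM in Refbx23. In VMMG it was 477 to 1074 FPKM in the WT, 44.7 to 66.0 FPKM in Δfbx23 and 3707 to 4481 FPKM in Refbx23, and its part in the results on VMMG was not tested. In these bulk samples, fewer cells of a kind and less RNA per cell cannot be told apart.

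The criteria narrowed the table step by step. A group mean of 5 FPKM was reached by 7547 genes, and 1094 of these were at least 2-fold apart between Δfbx23 and the WT in VMMC, 488 higher and 606 lower. Only 163 of them were also at least 2-fold apart from Refbx23 in the same direction. Of those, 105 had Refbx23 within 2-fold of the WT, and 74 had Δfbx23 within 2-fold of the WT in VMMG. The median difference between Δfbx23 and the WT in VMMC was 1.98 on the log2 scale over the 44 higher genes and -1.48 over the 25 lower ones. Against Refbx23 the medians were 1.68 and -1.38. These differences chose the genes and are given as a description.

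The place of Refbx23 between the other strains was bounded by the choice and is a description. The Refbx23 mean in VMMC lay between those of the WT and Δfbx23 for 30 of the 44 higher genes and at or beyond the WT mean for the other 14, and for the lower genes these counts were 16 and 9. Some of these gaps were minute, as in PDE_07153, with means of 8.73 FPKM in the WT and 8.76 FPKM in Refbx23. The 3 Δfbx23 libraries lay wholly above the 6 others in VMMC for 42 of the 44 higher genes, where 7.18% of all 7547 genes did so. They lay wholly below for 23 of the 25 lower genes, where 9.31% of all genes did so, and nothing is read from either count because the rule used these libraries. Both differences reached 4-fold in 10 higher and 3 lower genes.

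**Figure D1:**
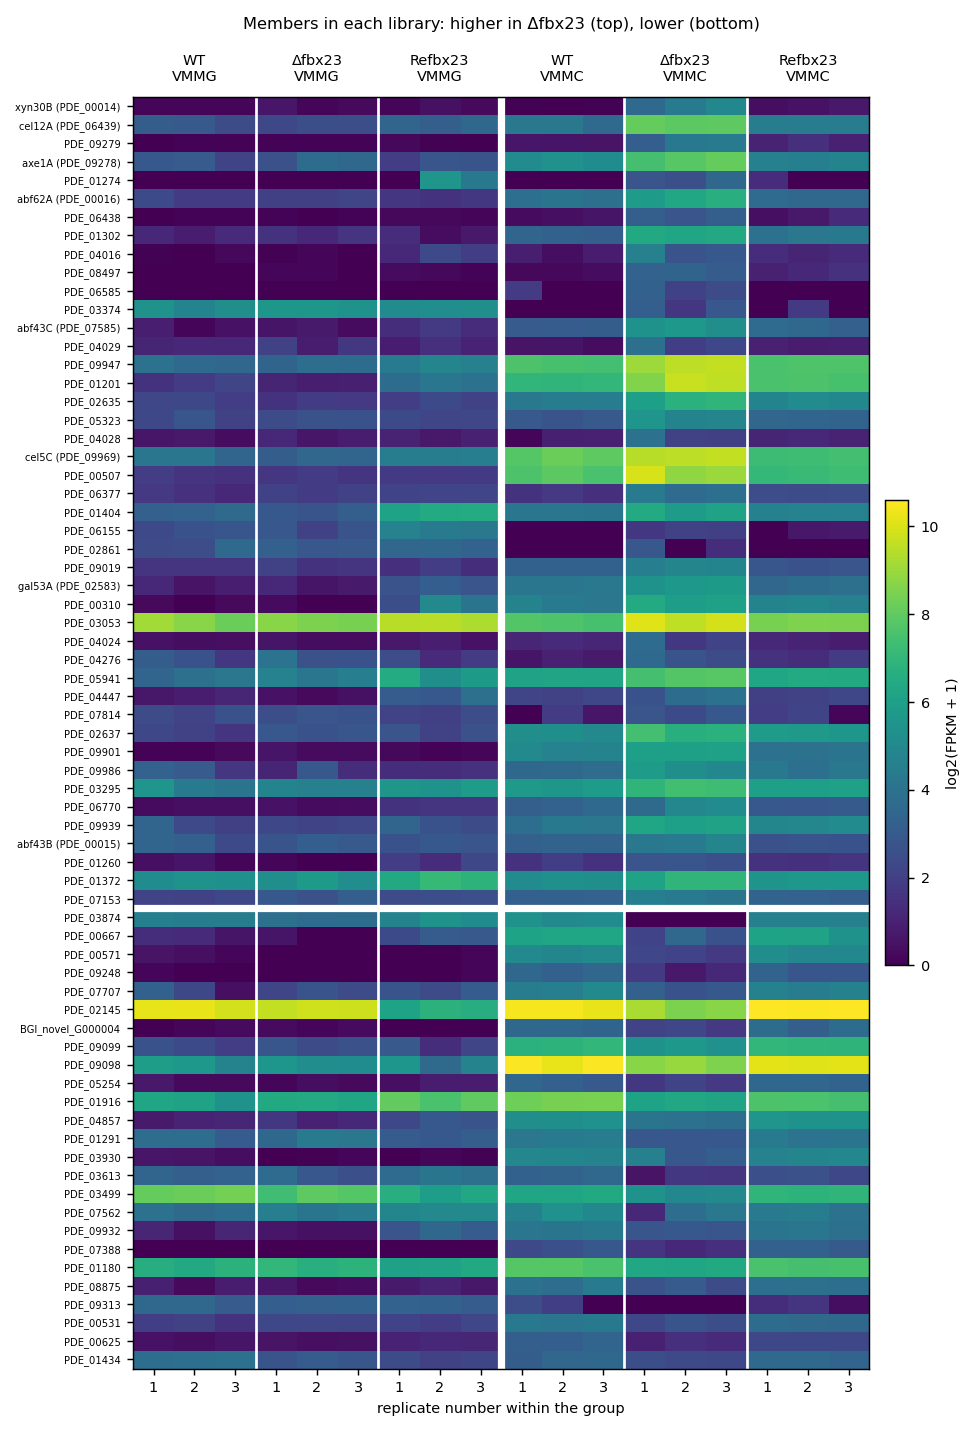
Transcription level of the 69 genes, as log2(FPKM + 1) by colour, in each of the 18 libraries, with 3 replicates per strain and medium. The upper 44 rows are higher and the lower 25 rows lower in Δfbx23 in VMMC, each ordered by the smaller of the differences from the WT and Refbx23.

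**Figure D2:**
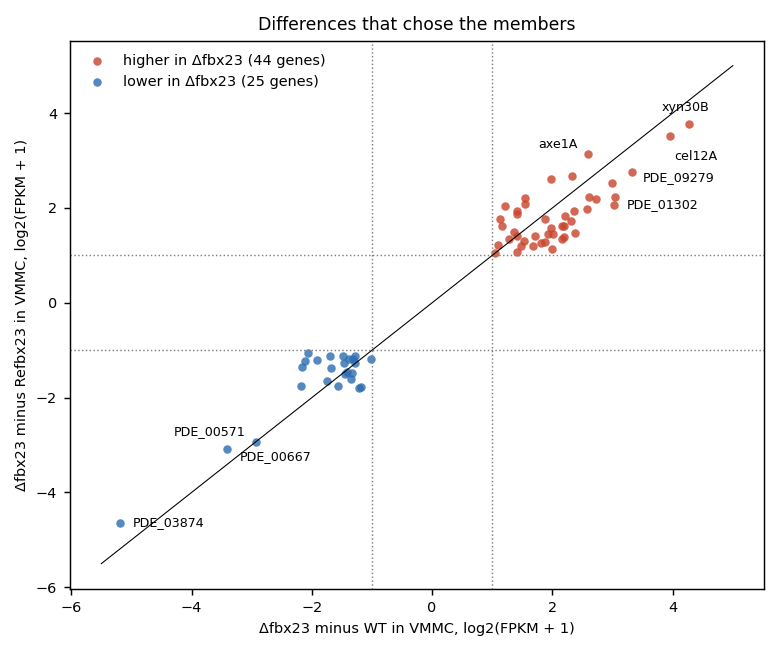
Difference of Δfbx23 from the WT (x axis) and from Refbx23 (y axis) in VMMC, both in log2(FPKM + 1), for the 44 higher and 25 lower genes. Dotted lines mark 2-fold and the solid line equal differences, and no point lies inside the dotted lines because they are the thresholds of the choice.

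The higher genes held both named cellulases of the set. The gene cel12A (PDE_06439), which encodes an endoglucanase that cuts within cellulose chains, measured in VMMC 17.6, 17.8 and 11.4 FPKM in the WT libraries, 270.0, 239.8 and 249 FPKM in those of Δfbx23 and 21.2, 21.8 and 20.7 FPKM in those of Refbx23. Its mean in Δfbx23 was 16.2-fold that of the WT and 11.9-fold that of Refbx23. On glucose all 3 strains had low levels, with means of 6.29 FPKM in the WT, 4.53 FPKM in Δfbx23 and 9.77 FPKM in Refbx23. The Δfbx23 libraries on cellulose therefore stood far above all 15 others for this gene. The other endoglucanase gene, cel5C (PDE_09969), measured in VMMC 219, 297 and 247 FPKM in the WT libraries, 699, 741 and 789 FPKM in those of Δfbx23 and 152, 159 and 172 FPKM in those of Refbx23. Here the WT and Refbx23 were already high on cellulose, and the mean of Δfbx23 was 2.92-fold and 4.62-fold theirs. Without overlap of the groups, cel5C was lowest in Refbx23 and highest in Δfbx23.

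Next to these stood genes known here only by the gene ontology (GO) terms that the study lists. PDE_00507, listed under cellulose binding, the breakdown of polysaccharides and the extracellular region, measured in VMMC 199.9, 244 and 186 FPKM in the WT libraries, 979, 453 and 506 FPKM in those of Δfbx23 and 131, 144 and 157 FPKM in those of Refbx23. Its 3 Δfbx23 libraries were spread more than 2-fold, with the first far above the others, yet the lowest of them exceeded every WT and Refbx23 library. PDE_01201, listed under polysaccharide binding and as a glycosyl hydrolase of the extracellular region, measured in VMMC 124, 122 and 129.5 FPKM in the WT libraries, 386, 828 and 762 FPKM in those of Δfbx23 and 188, 195 and 179 FPKM in those of Refbx23. In this gene the first Δfbx23 library was the lowest of its group, and the groups again did not overlap. PDE_09019, listed under cellulose breakdown, was lower throughout, with means ± SD (n = 3) of 8.83 ± 0.08505 FPKM in the WT, 25.3 ± 2.92 FPKM in Δfbx23 and 5.86 ± 0.372 FPKM in Refbx23. PDE_07153, listed under polygalacturonase activity, which cuts pectin, had the smallest differences of the higher genes, 1.04 against the WT and 1.04 against Refbx23 on the log2 scale.

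Of the 8 higher genes with a name in the study, 5 are named for enzymes of xylan breakdown and 1, gal53A, for one of pectin. The gene farthest from both other strains was xyn30B (PDE_00014), named as a xylanase, which cuts the xylan backbone. It measured in VMMC 0.05, 0 and 0.05 FPKM in the WT libraries, 11.2, 20.1 and 29.8 FPKM in those of Δfbx23 and 0.32, 0.45 and 0.63 FPKM in those of Refbx23. The gene was thus near 0 in both strains with fbx23, so the size of its ratio cannot be given with any precision. On glucose its highest library was at 0.58 FPKM, in Δfbx23. The locus numbers beside it held abf43B (PDE_00015) and abf62A (PDE_00016), named as arabinofuranosidases, which clip arabinose side chains from xylan.

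The level of abf62A was 13.4, 15.7 and 14.2 FPKM in the WT, 55.9, 80.3 and 100.3 FPKM in Δfbx23 and 11.9, 10.7 and 11.1 FPKM in Refbx23 in VMMC. For abf43B these were 8.62, 9.38 and 9.45 FPKM, 17.8, 19.1 and 27.6 FPKM and 5.23, 5.77 and 5.45 FPKM. Both were higher in every Δfbx23 library, by 5.46-fold over the WT mean for abf62A and 2.35-fold for abf43B. In abf43B, every Refbx23 library was below every WT library, and the WT on glucose already had a mean of 7.47 FPKM, close to its 9.15 FPKM on cellulose. A further arabinofuranosidase gene, abf43C (PDE_07585), measured in VMMC 7.24, 7.45 and 7.68 FPKM in the WT libraries, 42.3, 49.2 and 36.4 FPKM in those of Δfbx23 and 11.9, 10.9 and 8.59 FPKM in those of Refbx23.

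Among the remaining named genes, axe1A (PDE_09278) is named as an acetyl xylan esterase, which removes acetyl groups from xylan. It measured in VMMC 33.6, 39.9 and 34.5 FPKM in the WT libraries, 175, 232 and 269.8 FPKM in those of Δfbx23 and 23.5, 22.8 and 26.8 FPKM in those of Refbx23. The means of the WT and Refbx23 were 36 and 24.4 FPKM, and Δfbx23 exceeded them 6.26-fold and 9.25-fold. The next locus number, PDE_09279, listed under carbohydrate binding, measured in VMMC 0.57, 0.51 and 0.46 FPKM in the WT libraries, 7.92, 18.4 and 19.2 FPKM in those of Δfbx23 and 1.09, 1.68 and 0.98 FPKM in those of Refbx23. Its first Δfbx23 library was the lowest of its group, far under the other 2, and it still exceeded all WT and Refbx23 libraries. The gene gal53A (PDE_02583), named as a galactanase, which cuts the galactan side chains of pectin, had means ± SD (n = 3) of 17.4 ± 0.567 FPKM in the WT, 48.1 ± 6.56 FPKM in Δfbx23 and 12.4 ± 1.88 FPKM in Refbx23.

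**Figure D3:**
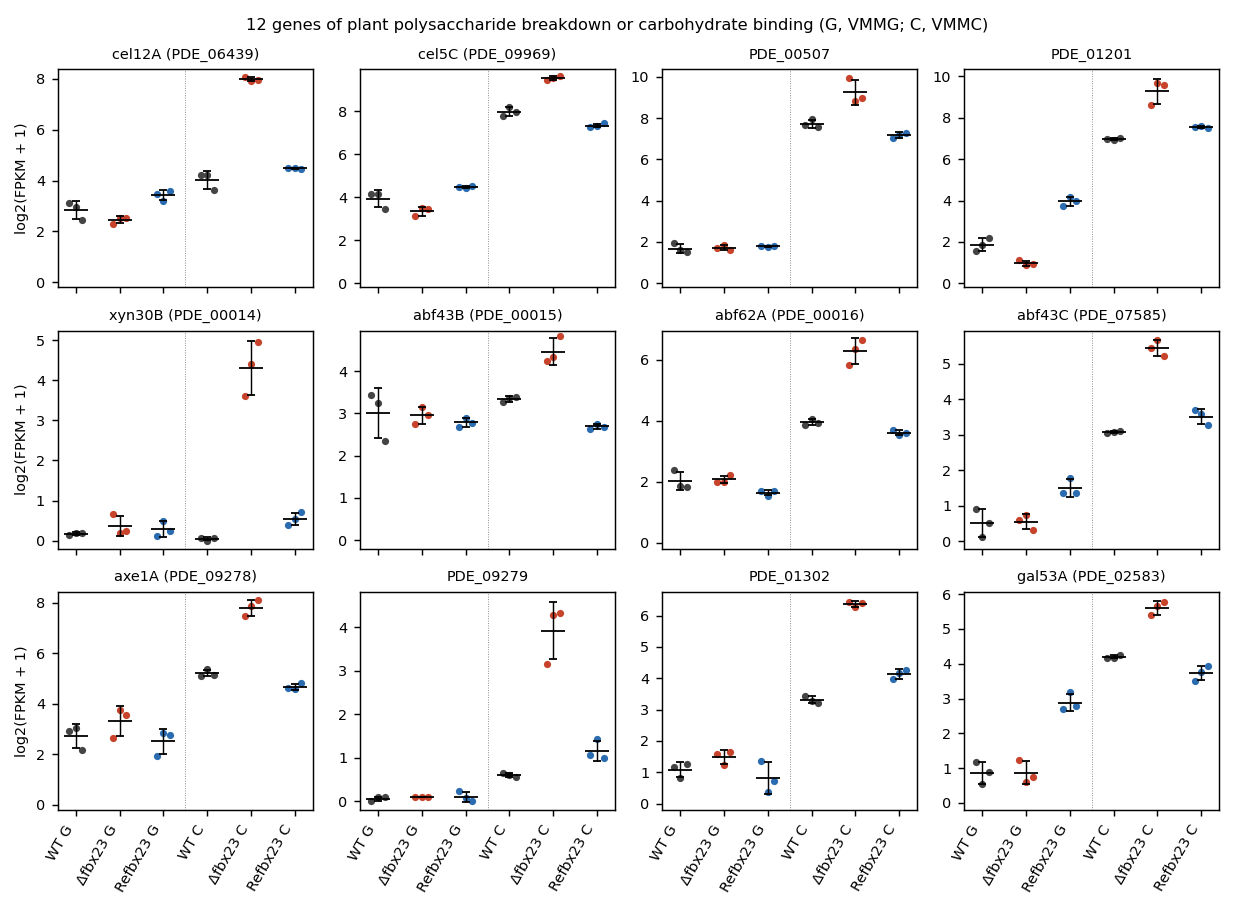
Transcription level, log2(FPKM + 1), of 12 higher genes tied to plant polysaccharides or carbohydrate binding by name or GO term, with a point per library, in the WT (grey), Δfbx23 (red) and Refbx23 (blue) in VMMG (G) and VMMC (C). Horizontal bars are means and error bars the SD of 3 libraries, and Δfbx23 in VMMC is the highest group in each panel.

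In the GO lists of the study, 10 of the 44 higher genes stood under carbohydrate binding, 9 of these under polysaccharide binding, a list of 31 genes, and 8 under cellulose binding, a list of 27, without a test of enrichment. In all, 15 stood under any term for carbohydrates, polysaccharides or glycosyl bonds. Those lists hold terms that the study reported for genes called on these same libraries, so they are not independent evidence, and a gene without a term may still have one elsewhere. PDE_01302, listed under cellulose binding but no breakdown term, measured in VMMC 9.9, 8.75 and 8.26 FPKM in the WT libraries, 85.3, 75.8 and 83.02 FPKM in those of Δfbx23 and 14.6, 17.1 and 18.4 FPKM in those of Refbx23. This was a 9.07-fold difference between the means of Δfbx23 and the WT, and the Refbx23 mean of 16.7 FPKM was above the WT mean of 8.97 FPKM. PDE_06438, with the same terms, lies beside cel12A by locus number and had means of 0.377 FPKM in the WT, 7.41 FPKM in Δfbx23 and 0.827 FPKM in Refbx23. PDE_06585, listed as a glycosyl hydrolase, was above 0 in 4 of 18 libraries, namely at 8.81, 3.25 and 4.35 FPKM in Δfbx23 and at 2.60 FPKM in 1 WT library in VMMC.

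A further 4 higher genes carry locus numbers between PDE_04016 and PDE_04029, and they share an uneven spread over the Δfbx23 libraries. PDE_04016, listed as a heme-binding monooxygenase of mycotoxin synthesis and placed by the study in its secondary metabolism cluster 15, measured in VMMC 0.85, 0.31 and 0.79 FPKM in the WT libraries, 23.2, 5.73 and 6.65 FPKM in those of Δfbx23 and 1.57, 1.15 and 1.39 FPKM in those of Refbx23. PDE_04024 of the same cluster measured 12.1, 2.33 and 3.48 FPKM in Δfbx23, against at most 1.43 FPKM in the WT and Refbx23 libraries. In PDE_04028, listed as an oxidoreductase, and in PDE_04029, which has no description, the Δfbx23 libraries in VMMC were at 14.4, 3.19 and 3.01 FPKM and 13.8, 2.88 and 3.9 FPKM. The first Δfbx23 library was over 3-fold above the other 2 in all 4. Without that library PDE_04024, PDE_04028 and PDE_04029 no longer met the criteria, while PDE_04016 did. Over all 44 higher genes, that library was the highest of its group for 20, the middle one for 6 and the lowest for 18, and 37 met the criteria without it.

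Other higher genes with a term had varied roles. PDE_01404, listed under heme binding and catabolism, measured in VMMC 16.8, 16.7 and 16.2 FPKM in the WT libraries, 88.4, 57.02 and 67.2 FPKM in those of Δfbx23 and 23.99, 24.99 and 25.3 FPKM in those of Refbx23. PDE_00310, listed under the extracellular region, measured in VMMC 25.6, 20.5 and 17.6 FPKM in the WT libraries, 88.4, 60.4 and 66.3 FPKM in those of Δfbx23 and 26.1, 28.4 and 23.8 FPKM in those of Refbx23. In both, the 3 strains did not overlap between Δfbx23 and the rest, with mean ratios to the WT of 4.28-fold and 3.38-fold. PDE_04447, listed as a hydrolase, PDE_04276, a transmembrane transporter, and PDE_06155, of secondary metabolism, had Δfbx23 means of 10.8, 7.12 and 2.83 FPKM. These were low levels, and PDE_04276 and PDE_06155 were higher on glucose than on cellulose in the WT. PDE_07814, which the study describes as similar to an uncharacterized protein of fission yeast, had a Δfbx23 mean of 5.56 FPKM and varied from 0 to 2.61 FPKM among the WT libraries.

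Of the 44 higher genes, 19 had no name, term or description in the sources used here, and some of these were among the most abundant of the 44. Within the higher genes, the highest mean on cellulose was that of PDE_03053, which measured in VMMC 215, 205 and 183 FPKM in the WT libraries, 1071, 766 and 967 FPKM in those of Δfbx23 and 338, 370.5 and 359 FPKM in those of Refbx23. In PDE_03053 the WT was higher on glucose than on cellulose, with 556, 413 and 294 FPKM in VMMG. PDE_09947 measured in VMMC 196, 180.0 and 173 FPKM in the WT libraries, 528, 753 and 777 FPKM in those of Δfbx23 and 186, 202 and 205 FPKM in those of Refbx23. Both had Δfbx23 libraries that exceeded all others on cellulose, by 4.65-fold and 3.74-fold over the WT means. PDE_08497 was near 0 except in Δfbx23 on cellulose, where it measured 9.15, 9.67 and 7.5 FPKM, while Refbx23 had 0.98, 1.24 and 1.85 FPKM. The Refbx23 mean of PDE_08497 was 0.958 above the WT on the log2 scale, just within the limit of 1. That rested on the pseudocount of 1, since the means were 0.2 FPKM in the WT and 1.36 FPKM in Refbx23. With a pseudocount of 0.5 or 0.1, PDE_08497 no longer met the criteria.

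The other 12 higher genes, all without a term, ranged widely in level but shared the pattern. PDE_05941 measured in VMMC 67.7, 71.9 and 71.3 FPKM in the WT libraries, 177, 214 and 227 FPKM in those of Δfbx23 and 76.1, 86.9 and 84.8 FPKM in those of Refbx23, and PDE_03295 measured in VMMC 52.8, 47.6 and 55.4 FPKM in the WT libraries, 121, 166 and 155 FPKM in those of Δfbx23 and 61.7, 62.8 and 66.5 FPKM in those of Refbx23. In both, the WT and Refbx23 libraries lay close together and under the lowest of Δfbx23. PDE_09901 had means of 27.4 FPKM in the WT, 64.2 FPKM in Δfbx23 and 14.9 FPKM in Refbx23, and stayed at or under 0.337 FPKM in the mean of each strain on glucose. Δfbx23 means of 97.6, 128 and 103 FPKM were measured for PDE_02635, PDE_02637 and PDE_01372, which were 4.92-fold, 3.65-fold and 2.79-fold those of the WT. The remaining 6, PDE_05323, PDE_06377, PDE_09986, PDE_06770, PDE_09939 and PDE_01260, had Δfbx23 means between 5.7 and 67.7 FPKM. Their ratios to the WT mean ran from 2.58-fold in PDE_06770 to 7.39-fold in PDE_06377.

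Some higher genes had groups with many zeros. PDE_01274 was listed at 0 in the WT in both media and in Δfbx23 on glucose, and measured 5.84, 5.03 and 11.1 FPKM in Δfbx23 on cellulose. PDE_03374 was listed at 0 in the WT on cellulose and measured 7.93, 2.24 and 6.27 FPKM in Δfbx23 and 0, 2.51 and 0 FPKM in Refbx23. Its 1 Refbx23 library above 0 overlapped the Δfbx23 libraries. PDE_02861 also overlapped, since 1 of its Δfbx23 libraries was at 0 and the other 2 were at 6.24 and 1.62 FPKM. Both PDE_03374 and PDE_02861 were expressed on glucose in all strains, with WT means of 35.1 and 6.803 FPKM. On the scale used, 13 higher genes had a WT mean under 1 FPKM on cellulose, and a ratio to such a mean depends on the pseudocount.

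The 25 lower genes were mostly without a description, since 22 had none in the sources used here. The farthest from the other strains was PDE_03874, which measured in VMMC 40.98, 31.9 and 33.8 FPKM in the WT libraries, 0 FPKM in each of those of Δfbx23 and 23.5, 24.5 and 23.7 FPKM in those of Refbx23. It was expressed in Δfbx23 on glucose, at 14.1, 12.2 and 12.5 FPKM, so its zeros were limited to cellulose. Its levels on glucose were 22.9, 20.8 and 21.7 FPKM in the WT and 25.9, 41.1 and 34.04 FPKM in Refbx23. PDE_00667 measured in VMMC 69.1, 73.7 and 76.8 FPKM in the WT libraries, 3.4, 11.03 and 5.45 FPKM in those of Δfbx23 and 69.1, 67.6 and 41.8 FPKM in those of Refbx23, and PDE_00571 measured in VMMC 31.9, 27.8 and 31.6 FPKM in the WT libraries, 3.78, 3.34 and 2.44 FPKM in those of Δfbx23 and 35.3, 28.5 and 29.4 FPKM in those of Refbx23. The Δfbx23 means were 9.05% and 10.5% of those of the WT, and both genes were at or below 1.65 FPKM on glucose in the WT and Δfbx23.

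PDE_09098 and PDE_09099, with consecutive locus numbers, were among the most abundant lower genes. PDE_09098 measured in VMMC 1477, 1213 and 1474 FPKM in the WT libraries, 422, 499 and 375 FPKM in those of Δfbx23 and 1129.5, 1076 and 1150.0 FPKM in those of Refbx23. PDE_09099 had means ± SD (n = 3) of 118 ± 10.7 FPKM in the WT, 43.8 ± 4.75 FPKM in Δfbx23 and 122 ± 5.16 FPKM in Refbx23. The Δfbx23 means were 31.1% and 37.03% of the WT means, and in neither gene did the Δfbx23 libraries overlap those of the WT or Refbx23. On glucose, PDE_09098 had means of 44.7, 38.98 and 27.7 FPKM in the WT, Δfbx23 and Refbx23.

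PDE_02145 was the lower gene with the highest level, and the study describes it as similar to adg2, a serine- and threonine-rich protein of fission yeast. It measured in VMMC 1401, 1392 and 1218 FPKM in the WT libraries, 611, 359 and 414 FPKM in those of Δfbx23 and 1532, 1467 and 1545 FPKM in those of Refbx23. Unlike the genes above, it was also high on glucose in the WT and Δfbx23, with means of 1112 and 858 FPKM, and it was low there in Refbx23, at 69.3, 111 and 97.05 FPKM. PDE_04857, listed under carbohydrate transport, had means ± SD (n = 3) of 38.3 ± 1.498 FPKM in the WT, 14.7 ± 1.35 FPKM in Δfbx23 and 42.6 ± 1.95 FPKM in Refbx23. PDE_01291, listed under membrane, had Δfbx23 libraries at 6.28, 6.34 and 6.59 FPKM and a WT mean of 19.6 FPKM. These 3 were the lower genes with any term or description, and all had Δfbx23 means between 30.5% and 38.3% of those of the WT or Refbx23.

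Among the other lower genes, PDE_01916 measured in VMMC 302, 344 and 352 FPKM in the WT libraries, 70.1, 78.6 and 72.4 FPKM in those of Δfbx23 and 195, 195 and 177 FPKM in those of Refbx23. The 3 strains were apart from each other in this gene, with Refbx23 between Δfbx23 and the WT. PDE_03499 and PDE_01180 had WT means of 79.5 and 209.9 FPKM on cellulose and Δfbx23 means of 33.9 and 79.9 FPKM. PDE_09248, PDE_07707, PDE_05254 and BGI_novel_G000004, a gene model of the sequencing provider, had WT means from 8.47 to 25.3 FPKM and Δfbx23 means of 15.2% to 31.98% of them. The other 8 lower genes whose Δfbx23 libraries stood apart, PDE_07388, PDE_08875, PDE_09932, PDE_00531, PDE_03930, PDE_03613, PDE_00625 and PDE_01434, had WT means from 5.14 to 27.5 FPKM. Their Δfbx23 means were 15.6% of that of the WT in PDE_00625 to 45.7% in PDE_03930. PDE_07388 was listed at 0 in all 9 libraries on glucose. In 2 lower genes the Δfbx23 libraries overlapped those of another strain. They were PDE_07562, whose Δfbx23 libraries measured 1.27, 12.8 and 17.7 FPKM, and PDE_09313, which was at 0 in Δfbx23 and also in 1 WT library.

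Consecutive locus numbers occurred in 5 runs that together held 11 of the 68 genes with a PDE number. They were PDE_00014 to PDE_00016, PDE_04028 with PDE_04029, cel12A with PDE_06438, axe1A with PDE_09279, and PDE_09098 with PDE_09099. Genes of a run were on the same side of the set. Across the 9 libraries on cellulose, neighbours correlated with Pearson's r from 0.886 to 0.971, as a description of points that share strains and libraries. The rule chose both genes of a pair for their pattern in these libraries, and other pairs were not compared. Nothing about neighbouring loci is read from these correlations. The 2 numbered genes on either side of the runs that the table holds were outside the set, and in VMMC they differed by -1.09 to 0.89 between Δfbx23 and the WT on the log2 scale. Whether reads were counted by strand is not given in the sources used here, so reads of overlapping neighbours cannot be told apart.

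The thresholds cut through a continuum. Just inside among the higher genes were PDE_07153, with differences of 1.04 from the WT and 1.04 from Refbx23, PDE_08497 and PDE_06155. The highest mean of PDE_06155 in the 5 groups of the rule was 5.21 FPKM, while Refbx23 on glucose, outside the rule, had 21.1 FPKM. Just outside were PDE_06069, PDE_01535 and PDE_09873, with differences from Refbx23 of 0.995, 0.994 and 0.984. Among the lower genes, PDE_00625, PDE_01434 and PDE_03613 were just inside, and the Refbx23 mean of PDE_00625 was 0.994 below the WT. PDE_09864, PDE_07106 and PDE_08415 were just outside, with differences from Refbx23 of -0.997, -0.989 and -0.963. PDE_07106 was far more abundant than any gene of the set, with a highest mean of 9459 FPKM in the 5 groups of the rule. Counting Refbx23 on glucose among the groups that could reach 5 FPKM added 1 higher gene.

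Other genes of cellulose breakdown were set beside the members. The study counts 13 cellulase genes, of which cel12A and cel5C are in the set and 4 were among those left out by name. Of the 11 outside the set, 7 were called higher and 1 lower in Δfbx23 than in the WT in VMMC by limma at a fold change of 2 and an adjusted p under 0.05. Over all 8006 genes tested, 6.05% were called higher and 8.34% lower. Between Refbx23 and Δfbx23, 9 of these 11 were called lower in Refbx23, against 1.67% of all 7894 genes, where 1.44% were called higher and 3.12% in either direction. The others, PDE_03711 and PDE_09041, differed by -0.23 and 0.11 and were not called. A call was not always a return to the WT. PDE_05445, the 1 called lower in Δfbx23, had VMMC means of 115, 26.1 and 3.31 FPKM in the WT, Δfbx23 and Refbx23. PDE_07945 differed by 0.39 between Δfbx23 and the WT (SE 0.18, limma adjusted p = 0.107), and its Refbx23 mean was 1.95 below the WT. Apart from these and PDE_07124, the genes called had Refbx23 within a log2 of 1 of the WT. The 4 left out by name met the numerical criteria of the set. They were among both the 7 and the 9 genes called, so these counts are a description. Several of the 11 were kept out by the rule itself. PDE_07124, for example, differed by a log2 of 1.19 between Δfbx23 and the WT (SE 0.21, limma adjusted p = 0.00216), but its Refbx23 mean was 1.30 below the WT, past the limit.

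Genes of GO lists that hold members of the set were counted in the same way, although the lists overlap. Of 18 tested genes under cellulose binding that were outside the set, 12 were called higher and 1 lower in Δfbx23 than in the WT on cellulose, with a median of 1.35 on the log2 scale where that of all genes was -0.03. For 21 under polysaccharide binding the calls were 14 and 1, with a median of 1.33. For 16 such genes of cellulose breakdown they were 5 and 3, with a median of 0.06, and for 8 under cellulase activity 4 and 1, with a median of 0.68. For 19 genes of xylan breakdown they were 6 and 1, and for 21 of the breakdown of cell wall polysaccharides 7 and 1, with a median of 0.50 in both. For 14 under polygalacturonase activity they were 3 and 5, with a median of -0.17. For 40 genes of carbohydrate transport they were 4 higher and 14 lower, with a median of -0.57. Carbohydrate transport lent the set 1 lower gene, PDE_04857. Genes left out by name counted as outside the set in these lists. The lists were reported by the study for genes called on these libraries, and no list was tested here.

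The Refbx23 libraries on glucose are the only ones that the choice of genes did not use. They were compared with the WT on glucose by limma, over genes whose mean across the 6 libraries reached 1 FPKM. Of the 44 higher genes 35 passed this filter. In Refbx23, 11 of them were called higher, where 11.5% of all 7795 genes were, and 0 were called lower, where 6.80% were. Without adjustment, 20 were higher and 1 lower at p under 0.05 by limma, the only tool run, where 28.4% and 25.6% of all genes were. The median difference of the 35 was 0.61 on the log2 scale, and that of all genes 0.01. A gene with 1 group under 1 FPKM passed the filter through the other group, which held for 8 of the 35 and for 6 of the 11 called. With both means at 1 FPKM or more, 5 of 27 were called higher, where 10.4% of all 7470 such genes were. Of the genes named next, PDE_00310, PDE_04447, gal53A, PDE_01274 and abf43C passed only through Refbx23.

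The genes higher in Refbx23 on glucose were led by PDE_00310, which measured 0.21, 0 and 0.22 FPKM in the WT and 4.84, 30.8 and 16.1 FPKM in Refbx23, a difference of 3.69 (SE 0.58, limma adjusted p = 0.00317). PDE_01404 measured 8.61, 9.04 and 11.5 FPKM and 69.3, 87.1 and 90.3 FPKM, a difference of 2.96 (SE 0.15, limma adjusted p = 1.09e-04). PDE_04447, PDE_01201 and gal53A followed, with differences of 2.41 (SE 0.29, limma adjusted p = 0.00118), 2.09 (SE 0.20, limma adjusted p = 6.13e-04) and 2.02 (SE 0.22, limma adjusted p = 8.48e-04). In each of these the 3 Refbx23 libraries were above the 3 WT libraries. PDE_01274 measured 0, 45.0 and 18.4 FPKM in Refbx23 and 0 in the WT, and its difference of 3.27 (SE 1.32, limma adjusted p = 0.0867) was no call. Of the named genes, gal53A alone was called, and cel12A, cel5C, abf43B, abf62A, abf43C and axe1A had differences from -0.38 to 0.99. The gene abf43C, at 0.99, lay just under the fold threshold and was called with a pseudocount of 0.1 or 0.5, without WT VMMG replicate 1 and without Refbx23 VMMG replicate 1. The gene xyn30B was under the filter.

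Of the 25 lower genes 17 passed the filter, and 5 were called higher and 3 lower in Refbx23 than in the WT on glucose, where 11.5% and 6.80% of all genes were, or 18.3% in all. Of the 5, PDE_09932 and PDE_04857 had WT means under 1 FPKM and passed only through Refbx23. PDE_02145 measured 1175, 1217 and 945 FPKM in the WT and 69.3, 111 and 97.05 FPKM in Refbx23, a difference of -3.59 (SE 0.20, limma adjusted p = 1.39e-04). PDE_03499 measured 269, 297 and 334 FPKM and 103, 58.8 and 79.3 FPKM, a difference of -1.92 (SE 0.21, limma adjusted p = 8.68e-04). PDE_09932, PDE_01916 and PDE_00667 were higher in Refbx23, with differences of 2.24 (SE 0.27, limma adjusted p = 0.00119), 1.95 (SE 0.24, limma adjusted p = 0.00131) and 1.71 (SE 0.29, limma adjusted p = 0.00426). In none of these 5 did the WT and Refbx23 libraries overlap. Beside these calls, the 6 conidial pigment genes were all called higher in Refbx23 than in the WT on glucose, with a median difference of 2.58, and their part in the results was not tested.

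**Figure D4:**
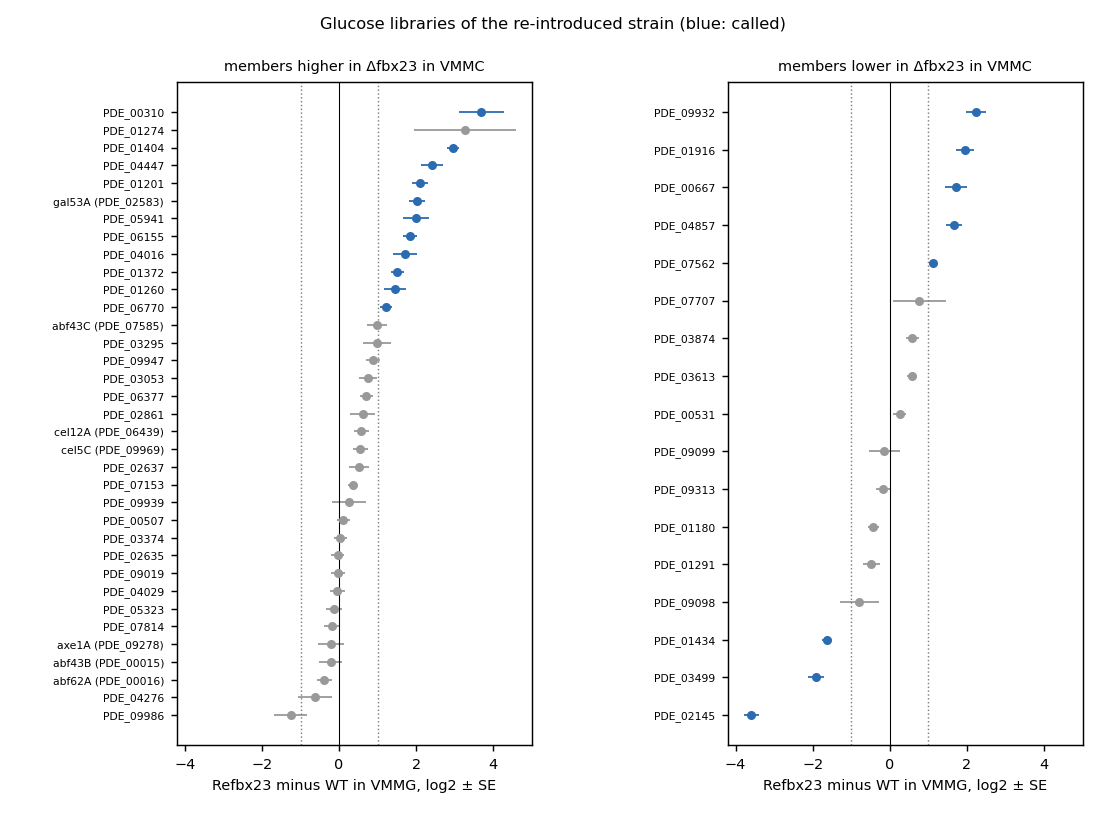
Difference of Refbx23 from the WT in VMMG, in log2(FPKM + 1) with the standard error of limma, for the 35 higher (left) and 17 lower genes (right) that passed the filter. Blue points were called at a fold change of 2 and an adjusted p under 0.05, and dotted lines mark 2-fold. On the left, 11 genes are called, all to the right of 0.

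The same Refbx23 libraries were compared with Δfbx23 on glucose. Because they are shared with the comparison above, the 2 sets of calls are not independent. Of 36 higher genes that passed the filter, 12 were called higher in Refbx23, where 13.4% of all 7782 genes were, and 0 lower, where 8.42% were. Without adjustment 19 were higher and 5 lower at p under 0.05 by limma, where 34.7% and 28.5% of all genes were. Of the 36 genes, 10 had a group mean under 1 FPKM, and 7 of these were among the 12 called, including PDE_00310, PDE_01201 and PDE_04447, which passed only through Refbx23. With both means at 1 FPKM or more, 5 of 26 were called higher, where 10.7% of all 7333 such genes were. The differences of PDE_00310, PDE_01404, PDE_01201 and PDE_04447 were 3.77, 3.41, 2.99 and 2.86. The gene cel5C measured 7.65, 10.1 and 10.01 FPKM in Δfbx23 and 21.3, 20.8 and 21.8 FPKM in Refbx23, a difference of 1.13 (SE 0.12, limma adjusted p = 3.72e-04). Its glucose libraries were apart between these strains. Of 17 lower genes, 5 were called higher and 2 lower, PDE_00667 and PDE_09932 passing only through Refbx23, and PDE_02145 was again lowest in Refbx23, with a difference of -3.22 (SE 0.17, limma adjusted p = 1.96e-05). The summed pigment genes differed even more here, with 44.7 to 66.0 FPKM in Δfbx23 and 3707 to 4481 FPKM in Refbx23.

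Most of the genes tested differed between the carbon sources. In the WT, 34 higher genes passed the filter between VMMC and VMMG, and 22 were called higher and 6 lower on cellulose, where 25.7% and 15.5% of all 8053 genes were, or 41.2% in all. Of 25 lower genes, 18 were called higher and 2 lower. The choice of genes used these libraries in other contrasts, and a lower gene had to be expressed in the WT on cellulose, so the counts are a description. A group mean under 1 FPKM, so that the gene passed through the other medium, held for 11 of the 28 higher genes called and 10 of the 20 lower ones. The medians over the genes tested were 1.40 and 2.69 on the log2 scale, and that of all genes was 0.13.

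The largest rise in the WT on cellulose was that of PDE_00507, from 2.81, 2.01 and 1.86 FPKM on glucose to 199.9, 244 and 186 FPKM, or 6.03 (SE 0.16, limma adjusted p = 4.26e-07). PDE_01201 and cel5C rose by 5.11 and 4.06, and axe1A by 2.49. The gene cel12A rose less, by 1.19 (SE 0.23, limma adjusted p = 0.00325), and by 0.996, under the fold threshold, without WT VMMG replicate 3. Among the lower genes PDE_00667 rose by 5.13 (SE 0.22, limma adjusted p = 2.43e-06), and PDE_09098 and PDE_00571 by 4.999 and 4.60. Falls on cellulose were led by PDE_03374, which went from 41.7, 26.8 and 36.95 FPKM to 0 in each library, and PDE_06155 and PDE_02861 were likewise at 0 in all 3 WT libraries on cellulose. The gene xyn30B did not reach the filter in the WT, and abf43B measured a difference of 0.33 (SE 0.28, limma adjusted p = 0.313), which is no call. The 6 pigment genes were also all called higher in the WT on cellulose than on glucose, and their part was not tested.

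In Refbx23, 38 higher genes passed the filter, and 17 were called higher and 6 lower on cellulose, where 13.7% and 7.68% of all 7958 genes were. Of 25 lower genes, 18 were called higher and 2 lower. The choice of genes used the Refbx23 libraries on cellulose, so these counts too are a description. A group mean under 1 FPKM held for 5 of the 23 higher genes called and 7 of the 20 lower ones. The medians were 0.80 and 1.84, and that of all genes was 0.06. PDE_00507 led the higher genes with 5.38 (SE 0.09, limma adjusted p = 3.17e-08), and PDE_09098 the lower genes with 5.48 (SE 0.42, limma adjusted p = 3.47e-05). PDE_02145 differed between the strains by its glucose level, since its difference on cellulose was 4.05 (SE 0.16, limma adjusted p = 1.75e-06) in Refbx23 and 0.27 in the WT. The difference between the strains was not tested. The pigment genes summed to 3707 to 4481 FPKM in Refbx23 on glucose and 2511 to 2707 FPKM on cellulose, so they did not rise on cellulose as in the WT.

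**Figure D5:**
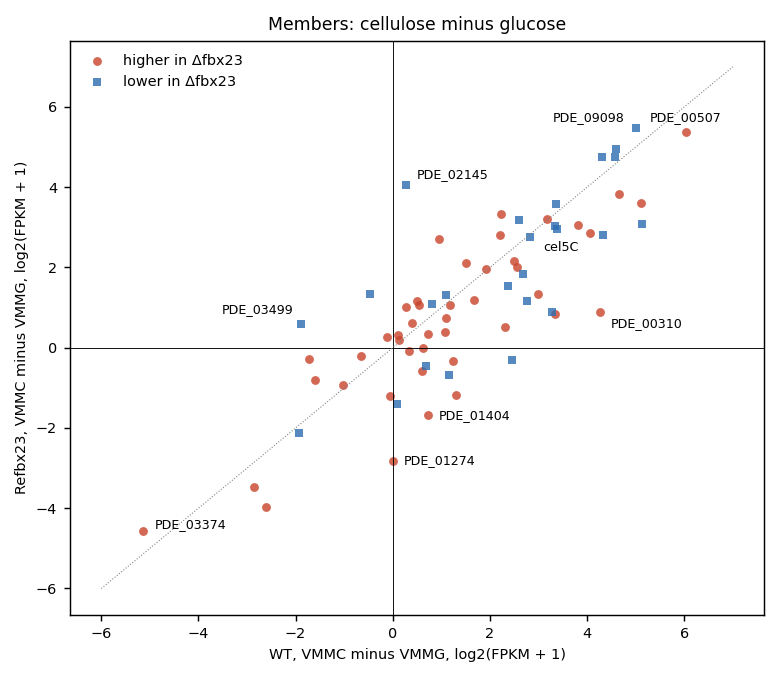
Difference between VMMC and VMMG in the WT (x axis) and Refbx23 (y axis), in log2(FPKM + 1), for all 69 genes, without a test. The dotted line marks equal differences. PDE_02145 and PDE_00310 lie far from it, with 4.05 in Refbx23 for the first and 4.27 in the WT for the second.

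In Δfbx23 the same difference is fixed in part by the choice of genes and is given without a test. Its median was 3.19 over the 44 higher genes, against 1.02 in the WT and 0.68 in Refbx23 over the same 44. For the 25 lower genes it was 0.75 in Δfbx23, 2.69 in the WT and 1.84 in Refbx23. The lower genes thus still tended to be above their glucose level in Δfbx23 on cellulose, by less than in the other strains.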

How the data were processed

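RNA of 18 samples was sequenced. The authors mapped the reads and deposited FPKM per gene, with 2 decimals and replicates apart. The aligner and genome build are not given in the sources used here. FPKM were used as deposited. Total depth is unknown. In 271 rarely detected genes, a unit was set from the lowest values above 0 of each gene. It was taken as the value of 1 read, which could not be checked without counts. Of the low values, 93.4% lay within 0.15 of a whole multiple of the unit. That share is fixed in part, because values that set the unit are counted in it. Relative to the other libraries, the unit ranged from 0.938 to 1.03.

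Members, lists and tests were chosen with earlier results of these data known. Each comparison was a fit of its 6 libraries with limma 3.58.1 (R 4.3.3), which modelled log2(FPKM + 1) and let the variance follow the level. Genes entered if their mean over those 6 reached 1 FPKM. A call required a 2-fold change or more, together with p under 0.05 after Benjamini-Hochberg adjustment over all genes tested. Fold changes on this scale understate those of low genes. The fit was tested on simulated data.

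Named genes were, in each direction, the 10 with the largest smaller difference, those with a name, GO term, cluster or description, up to 5 largest calls per comparison, the 5 most abundant and 3 on each side of the thresholds. Other genes named, such as PDE_02861, PDE_09313 and PDE_07124, were picked after their values were seen. Names and GO terms are those of the study. Tables were made with pandas 2.3.3 and numpy 2.4.6 in Python 3.11.15, and plots with matplotlib 3.10.9. Alternatives were other pseudocounts, filters, scaling, 1 fit of all libraries, a replicate block, no trend and leaving out each library.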

Additional observations from a re-analysis of the deposited data

Results flagged for a closer look

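A set of 6 genes moved in opposite directions with the carbon source in the WT and in Refbx23, with every cellulose library on 1 side of every glucose library in each strain. The difference between the strains was not tested. Over all 7547 genes with a mean of 5 FPKM, 8.22% did so, and 8.70% of the 69.

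Among the higher genes, PDE_01404 differed by 0.72 on the log2 scale between VMMC and VMMG in the WT and by -1.68 in Refbx23. PDE_04447 differed by 1.31 in the WT and by -1.18 in Refbx23. In both, Refbx23 on glucose was above the WT on glucose.

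Among the lower genes, PDE_03874 differed by 0.68 in the WT and by -0.45 in Refbx23, and PDE_07562 by 1.16 and -0.68. The opposite order was seen in PDE_03499, at -1.90 in the WT and 0.60 in Refbx23, and in PDE_01434, at -0.46 and 1.35. The glucose libraries that enter these values also differed in the summed pigment genes, with 477 to 1074 FPKM in the WT and 3707 to 4481 FPKM in Refbx23, and the part of this was not tested.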

How the results depend on the processing

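Which genes were in the set depended on the pseudocount. With 0.1 in place of 1, 36 higher and 22 lower genes met the criteria, of which 29 and 19 were in the set, and xyn30B, PDE_01201, PDE_00667 and PDE_00571 were among those lost. With 0.5 the counts were 43 and 24, with median-ratio scaling 48 and 24, and without 1 library they ranged from 43 to 47 and from 23 to 28. Of the set, 31 higher and 16 lower genes met the criteria without any 1 of the 15 libraries. Of 112 counts of calls recomputed, 108 stayed within 1.5 times. A filter of 5 FPKM left fewer genes to test and gave 7 higher and 5 lower genes called in Refbx23 against the WT on glucose, and 7 and 4 against Δfbx23. Without 1 library, the counts of higher and lower genes called ranged from 10 to 14 and stayed at 8 for Refbx23 against the WT on glucose, from 12 to 16 and 7 to 9 against Δfbx23, from 25 to 28 and 19 to 20 for the media in the WT, and from 22 to 24 and 19 to 21 in Refbx23. For axe1A, which was not called between Refbx23 and the WT on glucose, the difference of -0.22 ranged from -0.48 to 0.078 without 1 library, the last without Refbx23 VMMG replicate 1. Median-ratio scaling moved the median of all genes between the media in the WT by over 0.1, from 0.13 to -0.02.

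Replicate numbers were shared between groups. In the 4 comparisons tested between strains on glucose or between media, same-numbered libraries did not deviate together (correlations from -0.12 to 0.16). The numbers thus did not pair the libraries there, and other pairs of groups were not examined. With the number as a replicate block, 11 higher and 8 lower genes were called in Refbx23 against the WT on glucose, 13 and 7 against Δfbx23, 28 and 20 for the media in the WT and 23 and 20 in Refbx23. Without read totals, no limit from counting can be given for values at 0. Gene length and base composition could not be checked.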
